A study of Homo sapiens with 12 samples.

Results

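The proteasome genes described here are the 46 genes, of 10945 with a gene symbol in the counts, whose symbol begins with PSM, a letter from A to G and a digit. They were chosen by symbol and not by their values. Of these, 44 encode a subunit, activator, inhibitor or assembly chaperone of the proteasome. The other 2 share only the name: PSMC3IP encodes a recombination factor named after its binding to PSMC3, and PSMA3-AS1 is an RNA antisense to PSMA3. The core particle subunits PSMA6, PSMA8, PSMB10 and PSMB11 were not analysed here.

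HepG2, an established human liver cancer line of wild-type genotype, was compared in 4 culture media by 3′ mRNA sequencing, with 3 libraries per medium. The media were EMEM, DMEM at a low or a high glucose level (LGDMEM and HGDMEM) and Plasmax, a medium formulated to resemble human plasma. All cells had been maintained in EMEM with serum, 1 mM pyruvate and 2 mM glutamine and were seeded in EMEM, so that the EMEM group is the one that stayed in its maintenance medium. After 24 h the cells received 1 of the 4 media, each with 10% heat-inactivated serum, which was renewed at 48 h, and cells were collected at 96 h. The labels do not state whether the 3 libraries of a medium are separate cultures. The p-values below rest on the spread among them, whether biological or technical.

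The proteasome degrades proteins that carry ubiquitin chains. Its barrel-shaped core particle is built from outer rings of alpha subunits, which gate the channel, and inner rings of beta subunits, 3 of which carry the proteolytic sites. The regulatory particle caps the barrel: its base holds an ATPase ring that unfolds the substrate, and its lid holds the enzyme that removes the ubiquitin chain. Cells exposed to interferon exchange the catalytic subunits for immunoproteasome versions, which change the peptides passed to MHC class I. The transcription factor NFE2L1 (NRF1) raises proteasome genes together when proteasome activity falls short, by binding antioxidant response elements in their promoters.

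Counts on genes with a symbol ranged from 3995365 to 5840057 per library. The unit of level is CPM, the count of a gene relative to the TMM-scaled size of its library. They are not divided by transcript length, because 3′ libraries read the end of each transcript only, and levels are compared between media and not between genes. All 11 of 11 hepatocyte markers were measured, and their summed level was 24422 to 25245 CPM in EMEM and 16597 to 17882 CPM in Plasmax. Of the leukocyte markers 4 of 10 had a row, with a summed level, mostly of LYZ, of 2792 to 3485 CPM in EMEM and 2163 to 2376 CPM in Plasmax; PTPRC and CD3E had no row. Of the endothelial and stromal markers 3 of 10 had a row (43.9 to 59.5 CPM in EMEM and 69.4 to 94.9 CPM in Plasmax), and PECAM1 and VWF had none. Mitochondrially encoded transcripts took 11.4% ± 1.11 (SD, n = 3) of counts in EMEM and 13.5% ± 1.00 in Plasmax. The library LGDMEM 3 stood apart on the second principal component of all genes (−51.8, against −11 to 14.7 for the other 11 libraries). The part of these shifts in the results below was not tested.

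Proteasome mRNA as a whole was lower in Plasmax. The summed level of the 46 genes was 9476 ± 560.1 CPM in EMEM, 9299 ± 311 CPM in LGDMEM, 9426 ± 146 CPM in HGDMEM and 7773 ± 421 CPM in Plasmax (mean ± SD, n = 3 each). The highest Plasmax library reached 8074 CPM and the lowest library of the other media 8869 CPM, so the groups did not overlap. In bulk RNA, fewer cells with these transcripts and less of them per cell cannot be told apart.

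**Figure D1:**
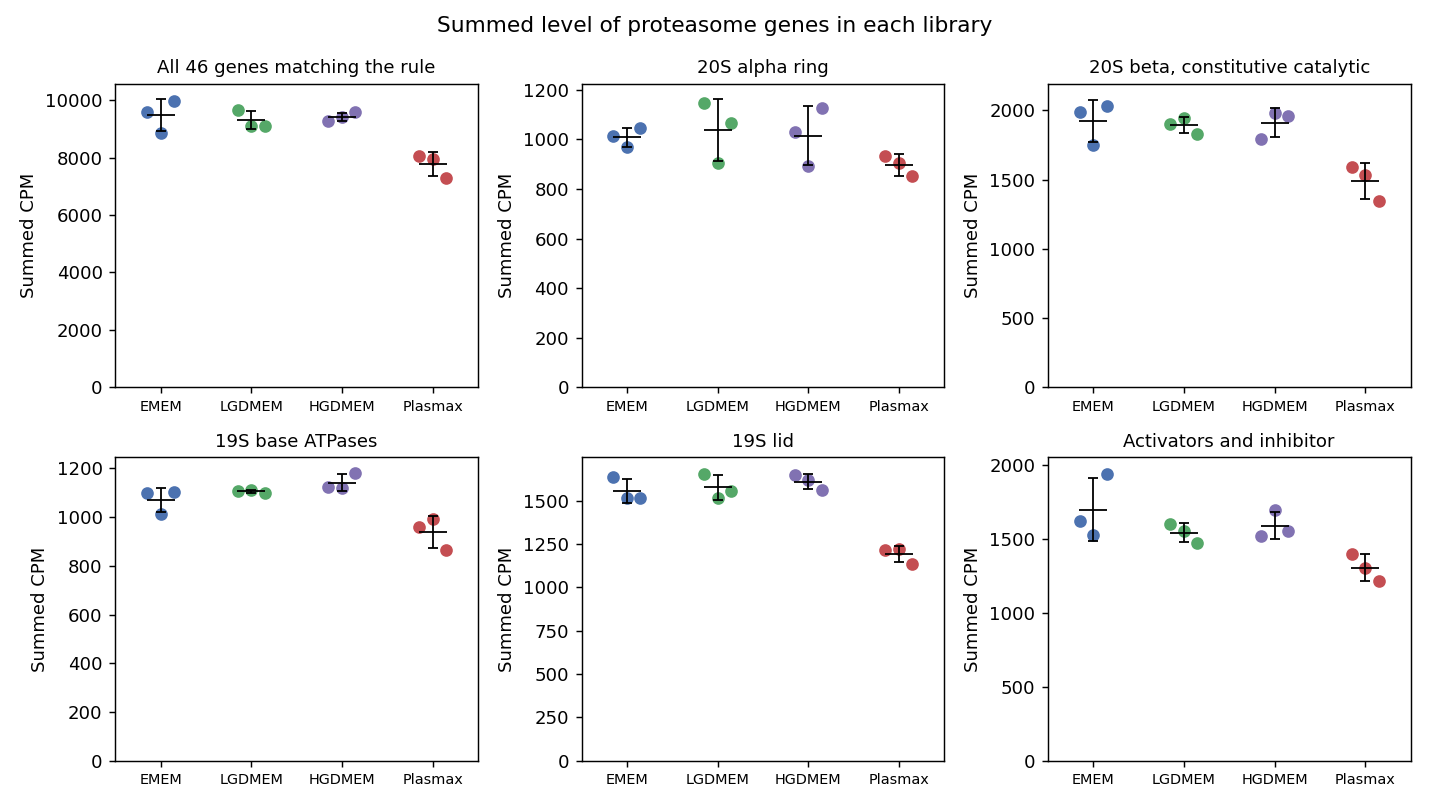
Summed CPM (vertical axis, from 0) of all 46 genes and of 5 role groups in each of the 12 libraries, by medium; points are libraries and bars are the mean ± SD of 3. For all 46 genes the Plasmax libraries sit between 7292 and 8074 CPM, below the 9 other libraries, while for the alpha ring they overlap with those of LGDMEM and HGDMEM.

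The fall was carried by some of the genes and not by all of them. By the test that follows, no structural beta subunit and no base subunit without ATPase activity fell, and in the lid only PSMD3 did. With edgeR's quasi-likelihood test and Benjamini-Hochberg adjustment over all genes at 0.05, 13 of the 46 fell and 0 rose in Plasmax against EMEM, where 22.1% of all genes were called (10% higher and 12.1% lower). Against LGDMEM 12 fell and 1 rose (all genes 21.2%, of which 9.48% higher and 11.7% lower). Against HGDMEM 14 fell and 1 rose (all genes 26.9%, of which 12.8% higher and 14.1% lower). The called shares of 28.3%, 28.3% and 32.6% were thus close to the background, whereas the direction was nearly always downward. The median log2 fold change of the 46 genes was −0.15, −0.24 and −0.27 against EMEM, LGDMEM and HGDMEM, beside 0.02, 0.00 and 0.01 for all genes. These 3 comparisons use the same Plasmax libraries and are not independent. Leaving out Plasmax 3 lowered the calls against LGDMEM to 7 falls and 1 rise, where 15.2% of all genes were called. Without LGDMEM 3 there were 13 calls, beside 20.7% of all genes.

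**Figure D2:**
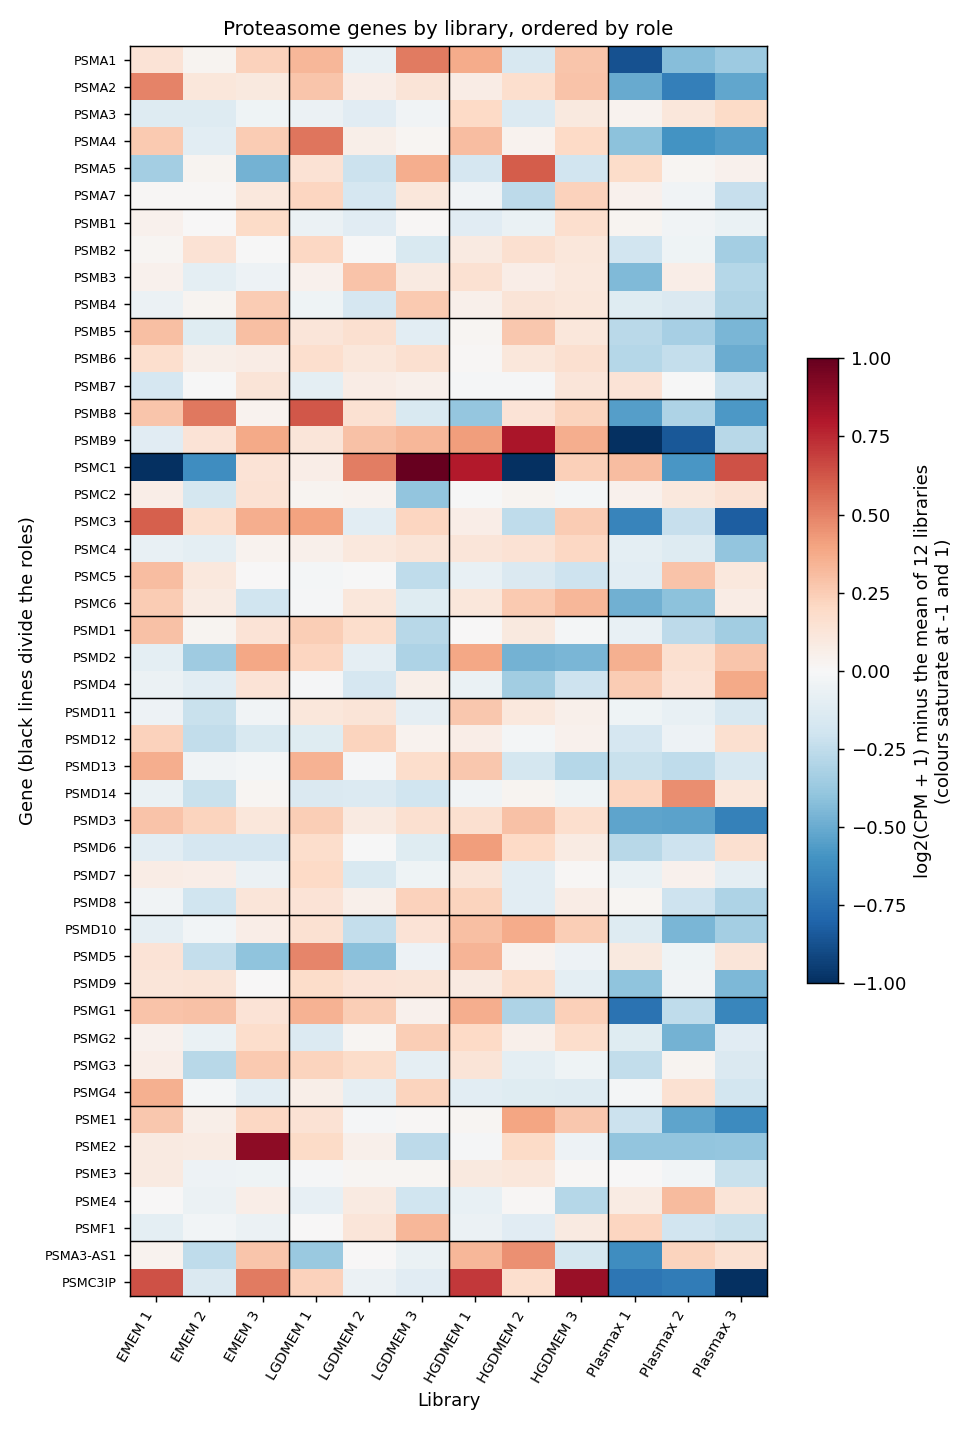
Level of each of the 46 genes (rows, ordered by role) in each of the 12 libraries (columns), as log2(CPM + 1) minus the gene's mean over the libraries, with red above and blue below the mean and colours saturating at −1 and 1. The blue cells of the Plasmax columns gather in single genes such as PSMA2, PSMA4, PSMD3 and PSME1, beside pale rows such as PSMB1 and PSMD7.

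In 10 of the 46 genes (21.7%) the 3 Plasmax libraries lay below all 9 others, beside 11.3% of all genes. These were PSMA1, PSMA2, PSMA4, PSMB5, PSMB6, PSMB9, PSMD3, PSME1, PSME2 and PSMC3IP. Only PSMD14 lay above all 9 (2.17%, beside 10.9% of all genes). The median SE of the log2 fold change against EMEM was 0.15 for the 46 genes and 0.25 for all genes. The shares of all genes given here and above were not matched for this precision.

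The promoters of these genes are shown for the element that NFE2L1 and its relatives bind. RefSeq promoter windows (GRCh38.p14, from 250 bases before to 50 bases after each transcription start) were found for 40 of the 46 genes by symbol, and were searched on both strands for the core of the antioxidant response element, TGACNNNGC, which reads GCNNNGTCA on the other strand. It was present in a window of 16 of the 40 genes (40%). Over all RefSeq genes with a window, measured here or not, 4384 of 27305 genes (16.1%) and 4687 of 35116 windows (13.3%) held it. The share among measured genes alone was not taken. In the tests above, which share the Plasmax libraries, 11 of the 46 genes were called lower against each of the 3 other media (8.43% of all genes were) and 18 were called in at least 1 comparison (34% of all genes were). Of the former, 10 had a window and 5 (50%) held the element; of the 24 genes with a window that were called in none, 9 (37.5%) did. Genes with several starts have more than 1 window, and a match is a string of letters, not a binding site. The 5 stretches below, each with 25 bases on either side of the element in capitals, belong to a core subunit, an immunoproteasome subunit, a lid subunit, an assembly chaperone and an activator that all fell in Plasmax; they are written 5′ to 3′ on the gene's own strand. The PSMD3 window holds a second match, not shown, that starts at 34 from the start site. PSMA4 has 3 starts with a window, of which 1 holds the element, and the position given refers to that start.
PSMA4 (chr15:78540635-78540693, + strand, element starting at −126 from the start site): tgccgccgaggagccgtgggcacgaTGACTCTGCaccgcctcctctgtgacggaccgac
PSMB9 (chr6:32854019-32854077, + strand, at −148): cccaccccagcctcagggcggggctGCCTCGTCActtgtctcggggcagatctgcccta
PSMD3 (chr17:39980745-39980803, + strand, at −37): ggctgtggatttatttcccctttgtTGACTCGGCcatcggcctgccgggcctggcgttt
PSMG1 (chr21:39183601-39183659, − strand, at −183): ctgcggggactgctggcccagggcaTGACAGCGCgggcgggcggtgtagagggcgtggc
PSME1 (chr14:24136083-24136141, + strand, at −86): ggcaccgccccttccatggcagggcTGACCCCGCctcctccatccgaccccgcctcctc

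In the alpha ring, which forms the gate of the core particle, 3 of 6 measured subunits fell in Plasmax and the others did not pass the test. PSMA1 was at 62.6, 58.2 and 67.1 CPM in EMEM, 72.2, 54.1 and 82.2 in LGDMEM, 73.9, 51 and 69.4 in HGDMEM and 30.7, 42.1 and 44 in Plasmax. All Plasmax libraries of PSMA1 were below all others, with log2 fold changes of −0.68, −0.83 and −0.73 against EMEM, LGDMEM and HGDMEM (SE 0.19 each; adjusted p = 0.0154, 0.00448 and 0.00822). The PSMA1 call against EMEM was lost without EMEM 3 (adjusted p = 0.0567) or Plasmax 1 (0.0813), and the call against HGDMEM without Plasmax 1 (0.0503). PSMA2 was at 66.3, 50.4 and 49.9 CPM in EMEM, 56.8, 48.8 and 50.9 in LGDMEM, 49.1, 52.3 and 56.9 in HGDMEM and 32.5, 28.6 and 32.2 in Plasmax, without overlap. It fell by 0.83, 0.74 and 0.76 on the log2 scale (SE 0.16 each; adjusted p = 0.00141, 0.0034 and 0.00208). PSMA4, whose promoter stretch is shown above, was at 140.1, 108 and 139 CPM in EMEM, 169, 121 and 118 in LGDMEM, 145, 119.5 and 134 in HGDMEM and 87.5, 76.8 and 79 in Plasmax. It fell by 0.67, 0.75 and 0.71 (adjusted p = 0.00484, 0.00222 and 0.00237), and the Plasmax libraries again lay apart. PSMA7 differed by −0.11, −0.13 and −0.06 and PSMA3 by 0.21, 0.18 and 0.05, none called. The PSMA7 interval against EMEM ran from −0.39 to 0.17, so a fall of the size seen in PSMA2 lay outside it. PSMA5 differed by 0.34, −0.03 and −0.05. PSMA3-AS1, the antisense RNA, differed by −0.07, 0.10 and −0.28 without a call, and reads of it and PSMA3 cannot be separated where strand was not used in counting, which the sources used here do not give.

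None of the 4 structural subunits of the beta ring, PSMB1, PSMB2, PSMB3 and PSMB4, which carry no active site, was called against any medium, and their log2 fold changes ran from −0.35 to 0.03. PSMB2 passed against HGDMEM with limma voom (−0.31, adjusted p = 0.0489) and with only the media compared (0.0495), and PSMB3 passed without Plasmax 2 against LGDMEM (−0.52, 0.043) and HGDMEM (−0.48, 0.0484). The standard active sites are PSMB5 (chymotrypsin-like), PSMB6 (caspase-like) and PSMB7 (trypsin-like), and PSMB5 and PSMB6 fell while PSMB7 was not called.

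PSMB5 was at 888, 661 and 889.6 CPM in EMEM, 784, 805 and 670.1 in LGDMEM, 728, 867.7 and 779.6 in HGDMEM and 599, 571 and 525 in Plasmax. The Plasmax libraries were below all 9 others, and PSMB5 fell by 0.52, 0.41 and 0.49 on the log2 scale against EMEM, LGDMEM and HGDMEM (SE 0.13 each; adjusted p = 0.00638, 0.0265 and 0.0084). The PSMB5 call against LGDMEM was lost without LGDMEM 1, LGDMEM 2, Plasmax 2 or Plasmax 3 (adjusted p = 0.0668 to 0.105). PSMB6 was at 739, 687 and 693 CPM in EMEM, 739.8, 713 and 739 in LGDMEM, 663, 713 and 736 in HGDMEM and 541, 559 and 466 in Plasmax. It fell by 0.44, 0.48 and 0.43 (SE 0.10 each; adjusted p = 0.00581, 0.00289 and 0.00498), with no overlap. PSMB7 was at 363, 406 and 447 CPM in EMEM, 381, 429 and 423 in LGDMEM, 405, 403 and 442 in HGDMEM and 448, 406 and 352 in Plasmax. The Plasmax libraries of PSMB7 lay among the others; it differed by −0.01, −0.03 and −0.05, with a 95% interval of −0.26 to 0.24 against EMEM. That interval excludes falls as large as the estimates for PSMB5 and PSMB6, although the difference between these genes was not itself tested.

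The immunoproteasome subunits PSMB8 and PSMB9, which replace PSMB5 and PSMB6, were present at low levels and were lower still in Plasmax. PSMB8 was at 23.5, 28.1 and 19.8 CPM in EMEM, 30, 21.4 and 17.2 in LGDMEM, 14.4, 21.2 and 22.6 in HGDMEM and 12.8, 15.4 and 12.6 in Plasmax. The Plasmax libraries of PSMB8 overlapped with those of HGDMEM alone. It fell by 0.81 against EMEM and 0.75 against LGDMEM (SE 0.25 and 0.26; adjusted p = 0.0283 and 0.0443) and differed by −0.51 against HGDMEM (adjusted p = 0.151). The PSMB8 calls changed with the processing: the one against EMEM was lost without EMEM 1, EMEM 2, Plasmax 1 or Plasmax 3 (adjusted p = 0.064 to 0.112), and the one against LGDMEM without LGDMEM 1, LGDMEM 2 or any Plasmax library (0.0614 to 0.223), and also under upper-quartile scaling, library size alone, limma voom and a fit to only the media compared. In all, the call against LGDMEM was lost in 10 of 16 settings, of which the last is an adjusted p of 0.01. PSMB9 was at 8.25, 9.97 and 12 CPM in EMEM, 9.84, 11.2 and 11.5 in LGDMEM, 12.4, 16.6 and 11.8 in HGDMEM and 2.27, 4.55 and 7.23 in Plasmax. All Plasmax libraries were lower than all others, although they ranged from 2.27 to 7.23 among themselves. PSMB9 fell by 1.10, 1.21 and 1.54 on the log2 scale (SE 0.37, 0.37 and 0.36; adjusted p = 0.0377, 0.0245 and 0.00421). The call against HGDMEM held with each library left out in turn, while the one against EMEM was lost without EMEM 2, EMEM 3, Plasmax 1 or Plasmax 2 (adjusted p = 0.0706 to 0.143) and the one against LGDMEM without LGDMEM 2, LGDMEM 3, Plasmax 1 or Plasmax 2 (0.0514 to 0.0978). The PSMB9 calls against EMEM and LGDMEM were also lost in a fit to only the media compared.

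The ratio of PSMB8 to PSMB5 overlapped between media. For PSMB9 to PSMB6, Plasmax overlapped with EMEM and LGDMEM and not with HGDMEM. PSMB8 counts per 100 PSMB5 counts were 3.04 ± 1.07 in EMEM, 3.02 ± 0.705 in LGDMEM, 2.44 ± 0.46 in HGDMEM and 2.41 ± 0.278 in Plasmax (SD, n = 3), with overlapping libraries. PSMB9 per 100 PSMB6 was 1.43 ± 0.308 in EMEM, 1.49 ± 0.137 in LGDMEM, 1.93 ± 0.362 in HGDMEM and 0.928 ± 0.575 in Plasmax. The Plasmax libraries stood at 0.419, 0.814 and 1.55, of which the last lies within the range of EMEM and LGDMEM. The HGDMEM libraries, at 1.87, 2.32 and 1.61, lay above all those of Plasmax and of LGDMEM (1.33, 1.57 and 1.56). They overlapped with EMEM, where EMEM 3 stood at 1.73. Differences in these ratios were not tested. These are ratios of 3′ counts and not of protein.

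**Figure D3:**
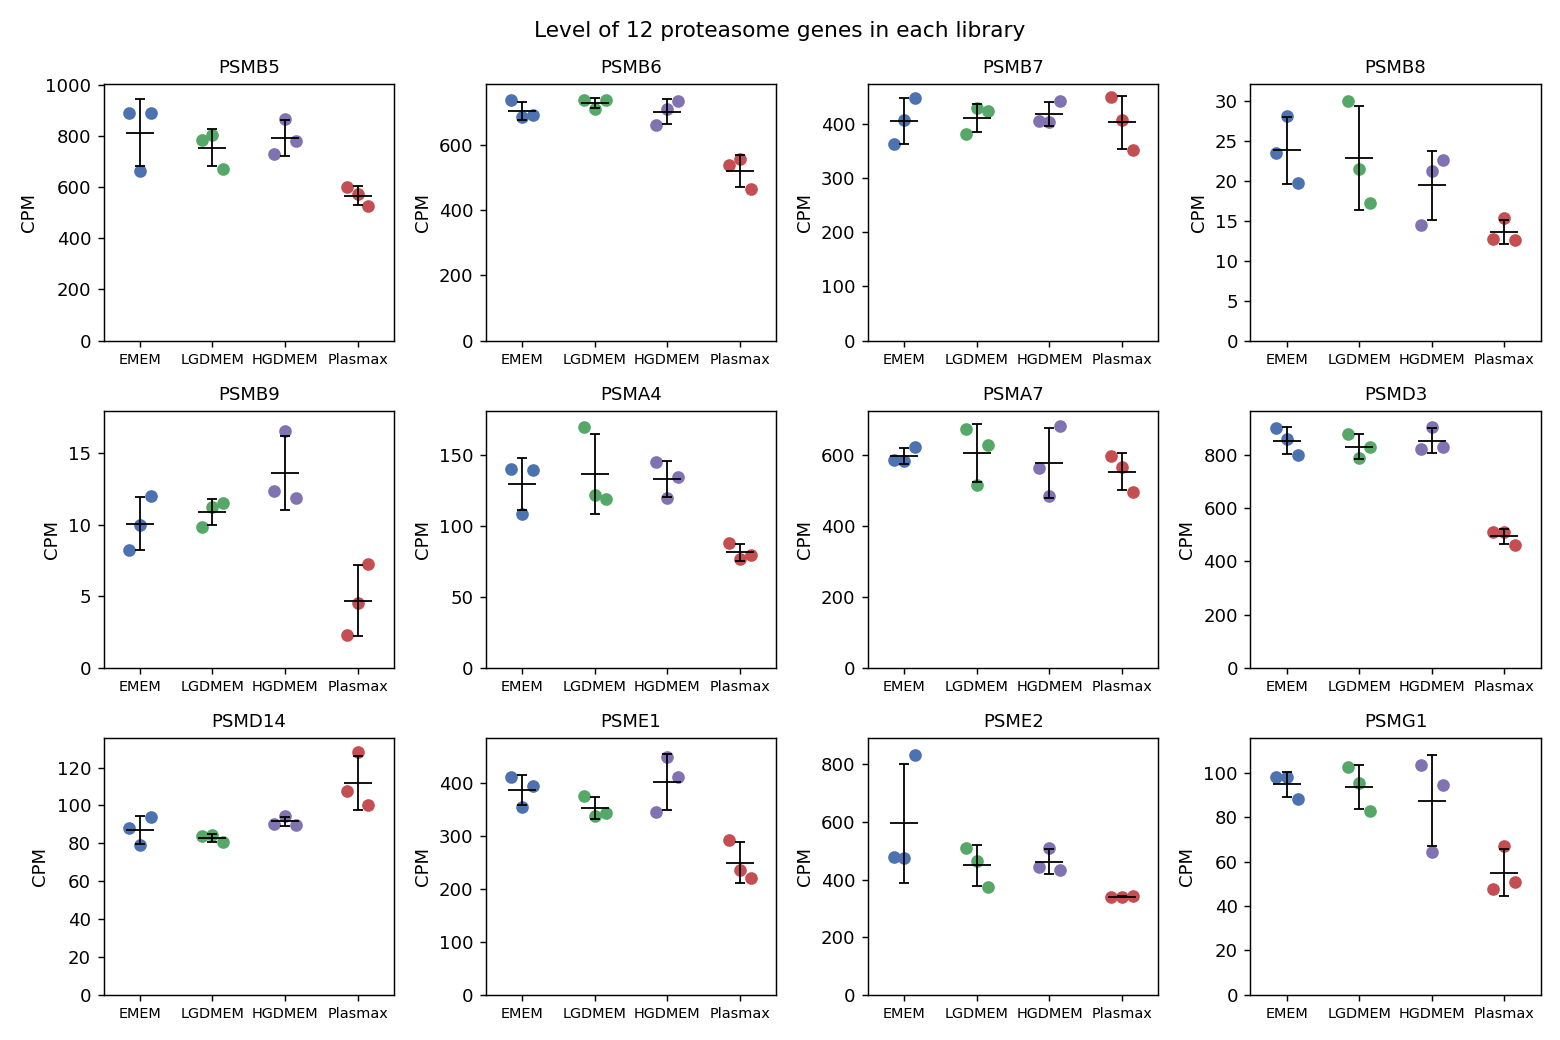
CPM (vertical axes, from 0) of 12 proteasome genes in each library by medium; points are libraries and bars are the mean ± SD of 3. PSMB5, PSMB6, PSMB9, PSMA4, PSMD3, PSME1 and PSME2 are lower in every Plasmax library than in the 9 others, PSMD14 is higher (100.05 to 128 CPM against 79 to 94.5), and PSMB7 and PSMA7 overlap.

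In the base of the regulatory particle the ATPase PSMC3 fell against all 3 media, and PSMC4 and PSMC6 were called against HGDMEM and not against the other media. PSMC3 was at 123, 91.5 and 105 CPM in EMEM, 108, 75.3 and 94.2 in LGDMEM, 85.1, 67.7 and 96.9 in HGDMEM and 51.1, 69 and 45.5 in Plasmax. Only HGDMEM 2 reached into the Plasmax range. The log2 fold changes were −0.94, −0.74 and −0.59 (SE 0.19 each; adjusted p = 0.00145, 0.00848 and 0.0255). The PSMC3 call against LGDMEM was lost without Plasmax 3 (adjusted p = 0.0524), and the one against HGDMEM without HGDMEM 1, HGDMEM 3, Plasmax 1 or Plasmax 3 (0.0673 to 0.119). PSMC4 fell by 0.36 against HGDMEM (SE 0.11, adjusted p = 0.0166; 0.0603 without HGDMEM 3 and 0.0932 without Plasmax 3) and differed by −0.16 and −0.30 against EMEM and LGDMEM, the latter passing with DESeq2 (0.0258), limma voom (0.0297) and a stricter filter, a mean of at least 5 CPM (0.0498). PSMC6 fell by 0.50 against HGDMEM (SE 0.18, adjusted p = 0.0475), a call lost without any library but Plasmax 3 (0.0618 to 0.174), and differed by −0.32 and −0.26 against the others. PSMC2 (0.08, 0.20 and 0.10) and PSMC5 (−0.04, 0.20 and 0.25) were not called. PSMC1 held only 0 to 19 counts per library and its values carry no weight. RefSeq lists 13 pseudogenes named after it, so that reads shared with copies may have been lost or misplaced in counting. Among other genes, it lists 6 for PSME2, 4 for PSMD7, 3 each for PSMA2, PSMC6 and PSMD10, and 1 each for PSMA1 and PSMC3. The part of such copies in the values given here was not tested.

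The base subunits without ATPase activity that carry a PSM name are PSMD1, PSMD2 and PSMD4, with a summed level of 549.6 ± 47.1 CPM in EMEM, 524 ± 63.5 in LGDMEM, 497 ± 31.3 in HGDMEM and 516 ± 30.4 in Plasmax, which overlapped. ADRM1, which belongs to the same group, is given with the factors outside the PSM names. Of these, PSMD4, a ubiquitin receptor, rose. It was at 141, 137 and 161 CPM in EMEM, 145, 131 and 153 in LGDMEM, 139.7, 115 and 127 in HGDMEM and 175, 161 and 191 in Plasmax, where the lowest library matched the highest of EMEM. PSMD4 rose by 0.46 against HGDMEM (SE 0.13, adjusted p = 0.0115; 0.062 without HGDMEM 2 and 0.055 without Plasmax 3) and differed by 0.27 and 0.30 against EMEM and LGDMEM, not called. The scaffold PSMD1 differed by −0.38, −0.29 and −0.25 (adjusted p = 0.0539, 0.142 and 0.184) and the scaffold PSMD2 by 0.26, 0.32 and 0.39, none called. PSMD1 passed against EMEM with DESeq2 (adjusted p = 0.0423), limma voom (0.0428), only the media compared (0.022), a replicate block (0.0319) or without Plasmax 1 (0.0496), and against LGDMEM without LGDMEM 3 (0.0142). PSMD2 passed against HGDMEM without HGDMEM 1, at 0.74 (0.0201).

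The lid held the clearest fall and the only rise against LGDMEM. PSMD3, a structural lid subunit, was at 902, 862 and 801 CPM in EMEM, 880.1, 789 and 829.5 in LGDMEM, 825, 908 and 832 in HGDMEM and 513, 511 and 463 in Plasmax. No Plasmax library came near the others, and PSMD3 fell by 0.79, 0.75 and 0.79 on the log2 scale (SE 0.10 each; adjusted p = 3.39e-05, 5.58e-05 and 2.19e-05). PSMD14, the deubiquitinase that cuts the chain off the substrate, was at 88.1, 79 and 94 CPM in EMEM, 83.8, 84.1 and 80.6 in LGDMEM, 90.2, 94.5 and 89.9 in HGDMEM and 108, 128 and 100.05 in Plasmax. Every Plasmax library of PSMD14 exceeded all others, yet only the comparison with LGDMEM passed, with a rise of 0.43 (SE 0.13, adjusted p = 0.0245). That call was lost without Plasmax 2 (0.13) or any LGDMEM library (0.0516 to 0.0559), and also in a fit to only the media compared. Against EMEM and HGDMEM PSMD14 differed by 0.36 and 0.29 (adjusted p = 0.0548 and 0.112). The difference from EMEM passed under upper-quartile scaling (0.0466), library size alone (0.0414), the stricter filter (0.042), DESeq2 (0.0403) and limma voom (0.0486), and without Plasmax 3 (0.0452). The other 6 lid subunits, PSMD6, PSMD7, PSMD8, PSMD11, PSMD12 and PSMD13, were not called against any medium, with log2 fold changes of −0.40 to 0.05. The summed lid was 1554 ± 68.5 CPM in EMEM and 1192 ± 48 in Plasmax, a difference that is close to that of PSMD3 alone (mean 855 and 496 CPM).

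**Figure D4:**
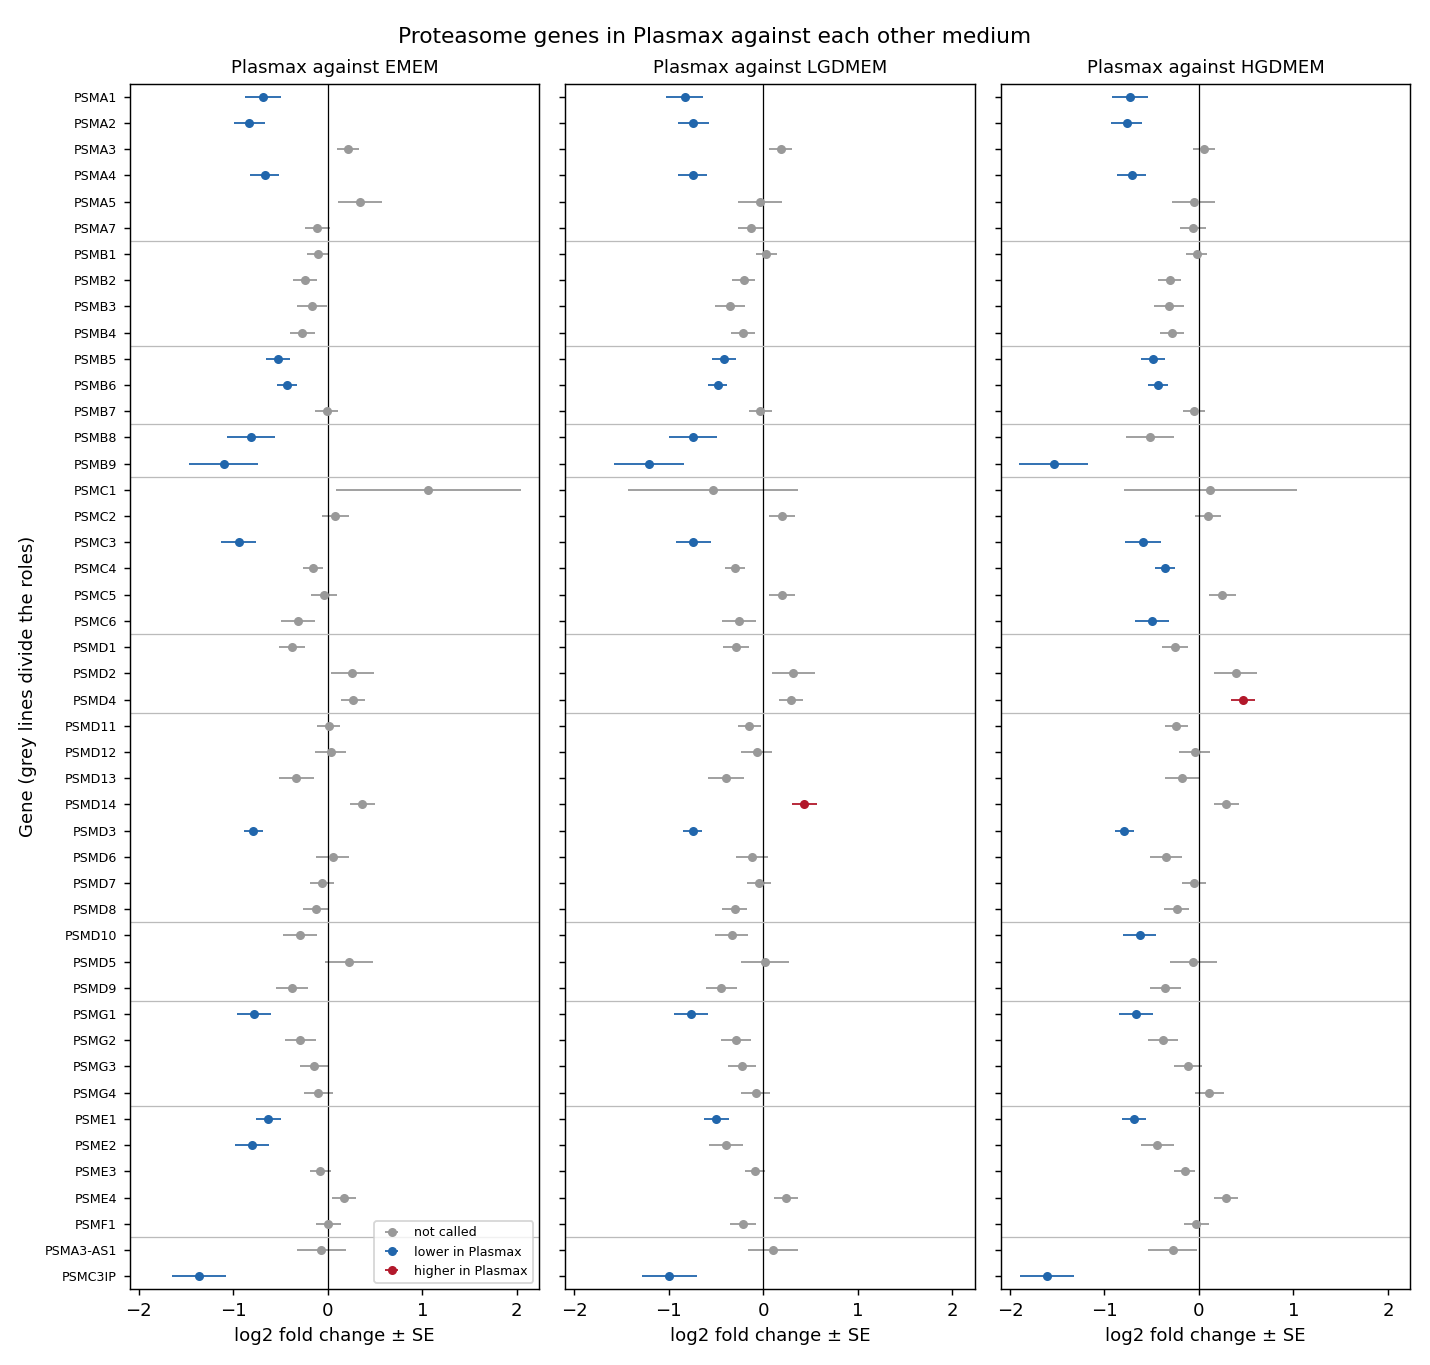
Log2 fold change ± SE of each of the 46 genes (rows, ordered by role) in Plasmax against EMEM, LGDMEM and HGDMEM (3 panels); blue points fell, red points rose and grey points were not called at an adjusted p of 0.05. PSMD3 has a narrow error at −0.79, −0.75 and −0.79, and PSMC1, with few counts, the widest.

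Of the dedicated assembly chaperones, which are absent from the finished particle, PSMG1 fell against all 3 media. It forms a pair with PSMG2 that guides the alpha ring into shape. PSMG1 was at 98.1, 98.3 and 88.1 CPM in EMEM, 102, 95.5 and 82.9 in LGDMEM, 104, 64.4 and 94.5 in HGDMEM and 47.6, 67.1 and 50.6 in Plasmax, with only HGDMEM 2 inside the Plasmax range. It fell by 0.78, 0.76 and 0.66 (SE 0.18 each; adjusted p = 0.00402, 0.00488 and 0.00936); the call against HGDMEM was lost without HGDMEM 1 (0.0616) or Plasmax 1 (0.0507). Its partner PSMG2 differed by −0.29, −0.29 and −0.38 (adjusted p = 0.222, 0.228 and 0.094). PSMG3 and PSMG4, the other chaperone pair of the core particle, were not called (−0.23 to 0.11). Among the chaperones of the base, PSMD10 (gankyrin) was at 32.3, 33.8 and 36.2 CPM in EMEM, 38.4, 29.1 and 38 in LGDMEM, 42.8, 44.9 and 41 in HGDMEM and 31.5, 24.8 and 27.1 in Plasmax. It overlapped with LGDMEM alone and fell by 0.63 against HGDMEM (SE 0.17, adjusted p = 0.0124; 0.0563 without Plasmax 2), while −0.29 and −0.34 against EMEM and LGDMEM were not called. PSMD9 (−0.38, −0.44 and −0.35) and PSMD5 (0.23, 0.02 and −0.06) were not called, although PSMD9 passed against LGDMEM without Plasmax 2 (−0.59, 0.0346).

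Of the activators, PSME1 and PSME2 were lower in Plasmax. PSME1 and PSME2 form the cytoplasmic PA28 cap that interferon induces, and both lay lower in all Plasmax libraries than in all others. PSME1 was at 412, 356 and 394 CPM in EMEM, 377, 338 and 345 in LGDMEM, 346, 449 and 412 in HGDMEM and 293, 237 and 221 in Plasmax. It fell by 0.63, 0.50 and 0.69 (SE 0.13 each; adjusted p = 0.00218, 0.0112 and 0.000812), the second of which was lost without Plasmax 2 (0.0502) or Plasmax 3 (0.0645). PSME2 was at 478, 475 and 833 CPM in EMEM, 511, 464 and 373 in LGDMEM, 445, 511 and 433 in HGDMEM and 339.6, 341 and 343 in Plasmax. The library EMEM 3 stood far above every other. PSME2 fell by 0.80 against EMEM (SE 0.18, adjusted p = 0.00327), and by 0.48 without EMEM 3 (0.0264), while −0.40 and −0.44 against LGDMEM and HGDMEM were not called (adjusted p = 0.122 and 0.0737). The first passed without LGDMEM 3 (−0.52, 0.0466) and the second in a fit to only the media compared (0.00392). The nuclear activator PSME3 (−0.08, −0.09 and −0.15), the large activator PSME4 (0.17, 0.24 and 0.29) and the inhibitor PSMF1 (0.01, −0.22 and −0.03) were not called.

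PSMC3IP, the recombination factor without a role in the proteasome, had the largest fold change of the 46 genes against EMEM among those that fell. It was at 27.4, 15.5 and 25.2 CPM in EMEM, 20.4, 16.5 and 15.8 in LGDMEM, 28.9, 19.5 and 32.1 in HGDMEM and 10.1, 10.2 and 5.99 in Plasmax. The Plasmax libraries were below all others, and PSMC3IP fell by 1.36, 1.00 and 1.61 (SE 0.29 each; adjusted p = 0.00238, 0.0197 and 0.000419). The call against LGDMEM was lost without LGDMEM 1 (0.071) or Plasmax 3 (0.0928).

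Among EMEM, LGDMEM and HGDMEM no proteasome gene was called. By edgeR's quasi-likelihood test 0 of 46 passed in LGDMEM against EMEM (0.0731% of all genes were called), in HGDMEM against EMEM (0.164%) and in HGDMEM against LGDMEM (0.064%), and DESeq2 and limma voom also called 0 in each. At an unadjusted p under 0.05 there was 1 gene in each comparison: PSME2 in LGDMEM against EMEM (log2 fold change −0.41), PSMD6 in HGDMEM against EMEM (0.40) and PSMC3IP in HGDMEM against LGDMEM (0.61). Their adjusted p-values were 0.59, 0.574 and 0.605, and the PSME2 value was −0.08 without EMEM 3. The median log2 fold changes were −0.01, 0.04 and 0.02. Over the 4 media together 12 of 46 genes differed (26.1%, beside 22.9% of all genes). Without Plasmax 3, 7 did, beside 15.4% of all genes, and without LGDMEM 3, 16 did, beside 25.1%.

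The shares of all genes called, for the lists that follow, are those given above: 22.1%, 21.2% and 26.9% against EMEM, LGDMEM and HGDMEM. These lists were chosen with earlier results of these data known. Of 15 proteasome factors outside the PSM names 1 rose and 1 fell against EMEM, 0 and 1 against LGDMEM, and 2 and 2 against HGDMEM, which is 13.3%, 6.67% and 26.7% called, with medians of −0.12, −0.03 and −0.13. POMP, the maturation factor that brings the beta subunits onto the alpha ring, fell by 0.33, 0.40 and 0.40 (SE 0.10 each; adjusted p = 0.0293, 0.00945 and 0.00771). ADRM1, a ubiquitin receptor of the base named here after its values were seen, differed by −0.15 and −0.28 against EMEM and LGDMEM and fell by 0.34 against HGDMEM (adjusted p = 0.0347).

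Of 18 genes that control proteasome transcription 2 rose and 1 fell against EMEM, 1 and 0 against LGDMEM, and 6 and 1 against HGDMEM. The shares that rose were 11.1%, 5.56% and 33.3%, beside 10%, 9.48% and 12.8% of all genes, and the list medians were 0.18, 0.05 and 0.13. NFE2L1 itself differed by 0.13, −0.04 and 0.28 (SE 0.19 each; adjusted p = 0.671, 0.918 and 0.299), none called. The processing enzymes that activate the NFE2L1 protein, NGLY1 and DDI2, were also not called (NGLY1 −0.01, −0.43 and 0.02; DDI2 −0.05, −0.09 and −0.32), both named after their values were seen.

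Upstream of the proteasome, 4, 2 and 5 of 15 genes for ubiquitin, its activating enzymes and the shuttle proteins rose against EMEM, LGDMEM and HGDMEM and 0 fell, with medians of 0.19, 0.20 and 0.27. The shares that rose were 26.7%, 13.3% and 33.3%, beside 10%, 9.48% and 12.8% of all genes. NBR1, a receptor that carries ubiquitinated cargo to autophagy, rose by 0.44, 0.62 and 0.78, and UBQLN1, a shuttle that docks on the proteasome, by 0.41, 0.54 and 0.49. Among VCP, the ATPase that extracts ubiquitinated proteins, and its cofactors (20 genes), 0 rose and 1 fell against EMEM, 1 and 2 against LGDMEM, and 2 and 1 against HGDMEM (5%, 15% and 15% called, with medians of 0.04, −0.03 and 0.01). VCP fell by 0.50, 0.58 and 0.53 (SE 0.11 each; adjusted p = 0.00362, 0.00123 and 0.00179).

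The COP9 signalosome, a complex related in build to the lid, which removes NEDD8 from cullins, had 3, 2 and 3 of 10 genes lower and 0 higher, with medians of −0.29, −0.31 and −0.43. The called shares of 30%, 20% and 30% were near those of all genes. COPS8 fell by 0.64, 0.75 and 0.73 and COPS6 by 0.61, 0.76 and 0.68. Of 24 cytosolic and mitochondrial chaperones 1 rose and 5 fell against EMEM, 3 and 6 against LGDMEM, and 1 and 4 against HGDMEM (25%, 37.5% and 20.8% called, with medians of −0.05, −0.05 and −0.09). The small heat shock protein HSPB1 fell by 0.94, 0.59 and 0.62, the mitochondrial pair HSPE1 and HSPD1 also fell against each medium, and the constitutive chaperone HSPA8 rose by 0.57, 0.74 and 0.62. For HSPA8 Plasmax 2 stood at 169 CPM, below EMEM 3 (191) and HGDMEM 3 (173), so Plasmax overlapped with these media.

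Downstream, MHC class I antigen processing, which loads the peptides that the proteasome makes, had 1 gene higher and 2 lower of 21 against EMEM, 1 and 2 against LGDMEM, and 2 and 2 against HGDMEM (14.3%, 14.3% and 19% called, with medians of −0.07, 0.02 and 0.01). The peptide-loading chaperone CALR fell by 1.16, 1.46 and 1.21, and the non-classical class I gene HLA-E rose by 0.51, 0.51 and 0.71. TAP1, the peptide transporter that shares a promoter region with PSMB9 and is named here for that reason, differed by −0.76 and −0.73 against EMEM and LGDMEM (adjusted p = 0.093 and 0.109) and fell by 0.96 against HGDMEM (0.0288).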

How the data were processed

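What the authors deposited is a single table of raw counts, whole numbers per gene, for 12 QuantSeq 3′ libraries. The submitters' processing notes name GRCh37 (hg19), STAR 2.7.5b, featureCounts 1.6.3, limma 3.40.6, FastQC 0.72 and cutadapt 1.16, without role or order; strand and the rule that removed low rows are not given in the sources used here. Rows without a symbol (601 of 11546, 2.92% to 3.71% of counts) were left out. All 10945 others were fitted in R 4.3.3 with the quasi-likelihood test of edgeR 4.0.16, with TMM scaling, medium as the only term and Benjamini-Hochberg adjustment at 0.05. As 0 genes failed the low-count filter, all 46 proteasome genes were tested. SE values are the fold change (log2) over the root of F. Alternatives were other scalings and filters, DESeq2 1.42.0, voom from limma 3.58.1, fits to only the media compared, a replicate block, an adjusted p of 0.01, the 44 genes with a role alone, and leaving out each library. The 46 genes were set by their symbols, while the rules for naming single genes and the lists were chosen with earlier results of these data known. Values in every library are given for the catalytic subunits and, per role, the called gene that rose or fell most, with others beside them. From each list, up to 4 genes called in all 3 Plasmax comparisons are named, NFE2L1 always, and others where stated.

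Replicate numbers recur in each medium. Correlations of same-numbered deviations over all genes were not above 0.1 for all 3 numbers in any comparison. Among the 4366 genes above a mean log2 CPM of 5 they were, for HGDMEM with EMEM (0.186, 0.11 and 0.124) and with LGDMEM (0.246, 0.165 and 0.21). The fits reported have no block.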

Additional observations from a re-analysis of the deposited data

How the results depend on the processing

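Under every alternative run, the number of proteasome genes called kept within 1.5 times its main value except against LGDMEM and over the 4 media. Against LGDMEM it was 7 at an adjusted p of 0.01 (11.5% of all genes called) and 8 without Plasmax 3 (15.2%). Left-out libraries gave 8 to 13 there, beside 15.2% to 20.7% of all genes. Over the 4 media it was 7 without Plasmax 3 (15.4% of all genes) and 7 to 16 over left-out libraries (15.4% to 25.1%). Against EMEM the number was 11 to 13 over left-out libraries, beside 15.5% to 19.3% of all genes. Against HGDMEM it was 11 to 14 over left-out libraries, beside 20.6% to 22.2% of all genes. In the comparisons without Plasmax it was 0 in all settings, beside 0.00914% to 1.08% of all genes. With a replicate block 14, 13 and 14 genes were called against EMEM, LGDMEM and HGDMEM, beside 23.1%, 22.1% and 27.8% of all genes. The block gave 0 in the other comparisons (0.137% to 0.21% of all genes) and 13 over the 4 media (24.1%). Among single genes it ended the call of PSMC6 against HGDMEM (adjusted p = 0.055) and added that of PSMD1 against EMEM (0.0319). The 3 Plasmax medians stayed negative in all settings. Of 41 calls of single genes 24 held in every setting. Of 4407 single-gene values 186 changed sign, all where neither the main fit nor the setting made a call. Genes with few counts, PSMC1 above all, limit what this depth can show.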
